A study of Mus musculus with 4 samples.

Results

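The insulin-like growth factor (IGF) family was followed through 8 genes: the ligands Igf1 and Igf2, the receptors Igf1r and Igf2r, and the binding proteins Igfbp2, Igfbp3, Igfbp4 and Igfbp6. Members were taken as every probe set whose platform annotation named 1 gene only, that gene being one of the 8, which gave 13 probe sets of the 12422 analysed and 8 of the 8251 genes named on the array. The 8 genes were chosen from signals already known by group and by replicate number on these same arrays. Their differences are therefore a description, and no test of them is offered as evidence.

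RNA came from mouse embryonic fibroblasts of mixed FVB;129Sv background. Every culture carried the Men1 knockout, in the controls too. Cells had then received either Men1 (the Men1-complemented group, 2 arrays) or vector alone (2 arrays), and the titles number the arrays 1 and 2 within each group. All were grown in DMEM with 10% FBS, plated at 70% density and collected after 24 h, and the series sought genes downstream of menin, the nuclear scaffold protein that Men1 encodes. The labels say neither what the number stands for nor whether the 2 arrays of a group are separate cultures, lines or clones. The Men1 probe set itself read 18.8 and 22.5 on the arrays labelled Men1, both at the control level defined below, and 18.1 and 29.5 on those labelled vector (log2 difference -0.11, SE 0.22). It was not higher where Men1 had been added, so it does not check the labels, and whether its probes match the deleted or the added sequence was not tested. Below, "with Men1" and "with vector" mean the arrays so labelled, and each direction between groups rests on those labels.

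IGF1 and IGF2 are small secreted relatives of insulin that bind the tyrosine kinase receptor IGF1R and so drive growth and survival through the PI3K and MAPK pathways. IGF2R, the cation-independent mannose 6-phosphate receptor, takes IGF2 to lysosomes and has no kinase. The binding proteins hold IGFs outside the cell, lengthen their life and, depending on the setting, block or help their access to receptors. In mice Igf2 is imprinted and expressed from the paternal allele, Igf2r from the maternal one, and fibroblasts of the embryo are a known source of both ligand and binding proteins.

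Signals were MAS5 values, the linear brightness that Affymetrix software computes for a probe set. They were compared as log2(signal + 16), a scale on which differences of dim probe sets are understated. The highest of 19 control probe sets for which no RNA is spiked in was at 25.9 and 27.4 with Men1, and at 15.9 and 20.0 with vector (numbers 1 and 2). A signal at or under its array's value is called at control level. Of the 13 member probe sets, 5 were above it on all 4 arrays, 2 on 3 arrays, 2 on 1 array and 4 on none. Signals of different probe sets depend on their probes and are not set against each other. In bulk RNA, fewer cells of a type and less RNA per cell cannot be told apart.

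**Figure D1:**
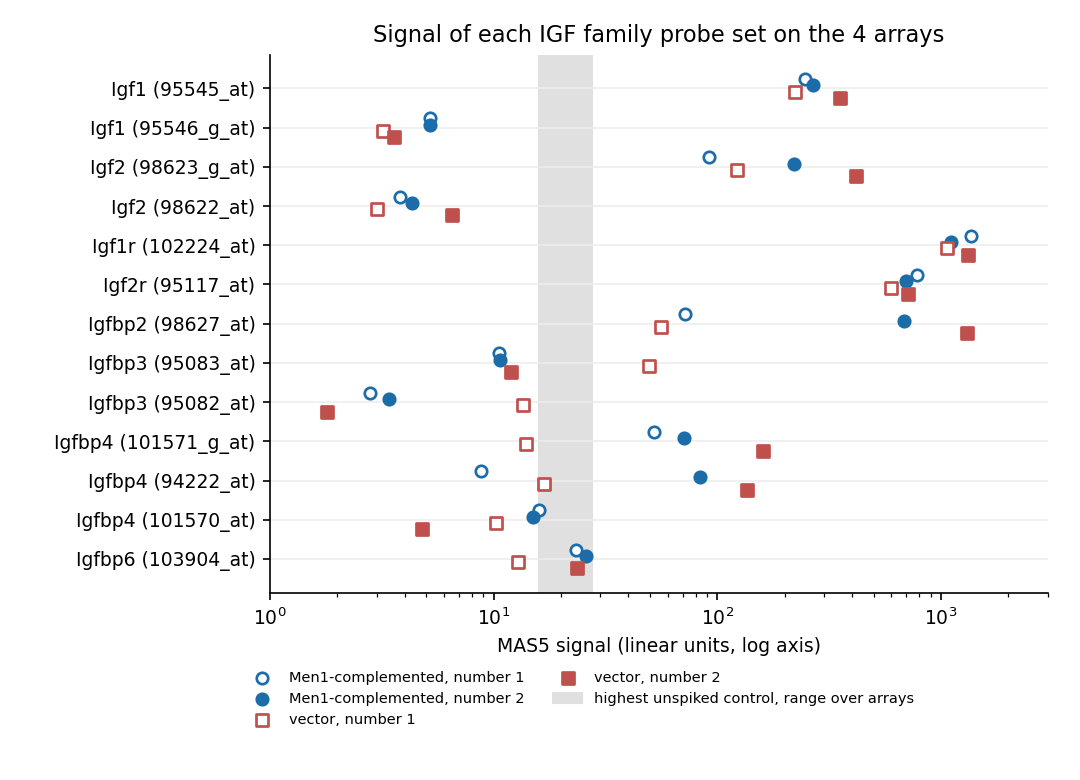
Signal of each of the 13 IGF family probe sets (rows) on the 4 arrays, on a log axis of linear MAS5 units. Rows of a gene run from its brightest to its dimmest probe set and carry the array's probe set names. Circles are Men1-complemented and squares vector arrays, open for number 1 and filled for number 2, and the grey band spans the highest unspiked control of the arrays, 15.9 to 27.4. Filled symbols of Igfbp2 (682.8 and 1305.3) lie far to the right of the open ones (72.1 and 56.0), whereas the 4 symbols of Igf1r and of Igf2r lie close together.

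The widest differences of the family followed the replicate number in the titles and not the group. Igfbp2, Igf2 and Igfbp4 were higher on both number 2 arrays than on both number 1 arrays, and the receptors were not. The upstream sequences of these 3 genes are shown because they are the members with a probe set over 1 log2 unit higher on number 2 in both groups. Each is the 250 bases before an annotated start from RefSeq (GRCm38.p6), 5′ to 3′ on the gene's strand, with every match to the GC box GGGCGG or the TATA box TATAAA on either strand in capitals. Igfbp2 lies at chr1:72824230-72824479 (plus strand), Igf2 at chr7:142657497-142657746 (minus strand) and Igfbp4 at chr11:99040994-99041243 (plus strand).
Igfbp2: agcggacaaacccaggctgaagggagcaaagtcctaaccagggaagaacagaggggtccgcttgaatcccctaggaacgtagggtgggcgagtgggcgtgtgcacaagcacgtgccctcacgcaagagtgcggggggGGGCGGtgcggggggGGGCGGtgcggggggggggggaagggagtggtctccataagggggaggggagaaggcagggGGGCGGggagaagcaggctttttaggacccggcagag
Igf2: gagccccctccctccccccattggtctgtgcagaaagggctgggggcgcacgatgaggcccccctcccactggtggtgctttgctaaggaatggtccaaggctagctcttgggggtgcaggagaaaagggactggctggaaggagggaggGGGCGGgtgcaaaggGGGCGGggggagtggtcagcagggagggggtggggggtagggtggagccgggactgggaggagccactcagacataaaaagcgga
Igfbp4: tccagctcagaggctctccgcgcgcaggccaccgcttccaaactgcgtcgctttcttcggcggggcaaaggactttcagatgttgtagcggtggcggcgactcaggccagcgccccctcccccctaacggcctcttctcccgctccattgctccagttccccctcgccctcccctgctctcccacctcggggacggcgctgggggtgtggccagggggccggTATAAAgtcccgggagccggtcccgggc

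All 8 members matched the RefSeq table, with 12 windows among them, 4 for Igf2 and 2 for Igfbp2. The printed window was the one with the most GC boxes where a gene had several. It held 3 GC boxes for Igfbp2, 2 for Igf2 and 0 for Igfbp4, whose window had 1 TATA box instead. The GC content of the printed windows was 67.2%, 66.0% and 69.2%, and the median over all 32851 windows was 52.4%. The windows not printed had 68.8%, 47.6% and 50.8% for Igf2 and 56.4% for Igfbp2. Choosing windows by GC boxes favours those rich in G and C, so the printed values for Igf2 and Igfbp2 are not comparable with that median. A GC box was found in 32.7% of all windows and in 5 of the 12 member windows, a TATA box in 12.4% and in 2 of 12. Igfbp6 held the other TATA box, and the windows of both receptors, whose signals did not follow the number, also had GC boxes (2 for Igf1r and 3 for Igf2r). The arrays do not show which start was used.

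Igf1, the ligand that growth hormone induces in many tissues, was measured by 2 probe sets. The brighter one read 247.2 and 267.6 with Men1, 222.5 and 353.1 with vector (numbers 1 and 2). Vector number 2 was the highest and vector number 1 the lowest, so the groups overlapped. Both number 2 arrays exceeded both number 1 arrays, by 0.11 log2 units with Men1 and 0.63 with vector. The log2 difference, Men1-complemented minus vector, was -0.12 with a limma standard error (SE) of 0.26. The other Igf1 probe set was at control level on all 4 arrays, with signals from 3.2 to 5.2.

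Igf2, the fetal growth factor, read 91.4 and 219.3 with Men1, 122.5 and 415.2 with vector in its bright probe set. Both number 2 arrays exceeded both number 1 arrays, by a signal ratio of 2.40 with Men1 and 3.39 with vector. The group difference was -0.37 log2 units on the number 1 arrays and -0.87 on the number 2 arrays, where the signal ratio of vector over Men1 was 1.89. Group means were 155.4 ± 90.4 and 268.9 ± 207.0 (SD, n = 2 each), and the group difference of -0.62 was within its SE of 0.66. Without vector number 2 it was 0.20, without vector number 1 -1.44, without Men1 number 1 -0.05 and without Men1 number 2 -1.19. The second Igf2 probe set was at control level throughout, from 3.0 to 6.5, so the gene rests on 1 probe set here.

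Igf1r, the signalling receptor, read 1358.8 and 1106.6 with Men1, 1064.8 and 1323.4 with vector. The groups overlapped, and the log2 difference was 0.05 (SE 0.22). Igf2r, which removes IGF2, read 778.8 and 696.7 against 597.6 and 716.0, a difference of 0.17 (SE 0.19). Averaged over groups, number 2 minus number 1 was 0.01 for Igf1r and 0.05 for Igf2r, so neither receptor shared the difference of Igf2. Number 2 minus number 1 was -0.29 and -0.16 with Men1, and 0.31 and 0.25 with vector, for Igf1r and Igf2r in turn.

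Igfbp2, a binding protein of fetal tissues that prefers IGF2, showed the largest mean difference between replicate numbers on the log2(signal + 16) scale. Its only probe set read 72.1 and 682.8 with Men1, 56.0 and 1305.3 with vector. All 4 signals were above control level, and within each group the 2 arrays of one label stood apart by far more than the groups did. Number 2 over number 1 was a signal ratio of 9.47 with Men1 and 23.3 with vector. On the log2(signal + 16) scale these are differences of 2.99 and 4.20, and their mean of 3.59 ranked 1 by size among all 12422 probe sets. A probe set without a gene symbol, at control level on both number 1 arrays, ranked 2 with a mean of 3.27. Its difference with vector, 4.28, was larger than that of Igfbp2. The rank depends on the 16 added and was not tested with other pseudocounts.

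Between groups, Igfbp2 differed by -0.31 with an SE of 1.66, because the fit counts the difference between numbers as spread. Group means were 377 ± 432 with Men1 and 681 ± 883 with vector (SD, n = 2 each). Within the numbers the group difference changed sign, at 0.29 on the number 1 arrays and -0.92 on the number 2 arrays, where vector over Men1 was a signal ratio of 1.91. Leaving out 1 array turned the group difference either way, to 1.78 without vector number 2, 1.18 without Men1 number 1, -1.81 without Men1 number 2 and -2.41 without vector number 1. Its direction between groups thus depended on which array was left out.

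Igfbp4, a binding protein that mostly inhibits IGF action and is cut by the protease PAPP-A, had 3 probe sets. The second brightest of them read 8.8 and 84.0 with Men1, 16.8 and 136.3 with vector, and so separated the numbers in both groups. Its number 1 signal was at control level with Men1, which makes number 2 at least 2.39-fold higher there, on signals with the 16 added and against the control. With vector its number 1 signal was just above the control of 15.9, and the log2 difference was 2.22.

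The brightest Igfbp4 probe set read 52.3 and 71.1 with Men1, 13.9 and 159.6 with vector. Number 2 was again higher in both groups, but by 0.35 log2 units with Men1 and, with vector number 1 at control level, at least 5.50-fold with vector. The third was at control level on all arrays, from 4.8 to 16. The 2 measurable probe sets of Igfbp4 had the same direction between numbers and unequal sizes. Between groups the second brightest differed by -0.51 (SE 0.97) and the brightest by 0.09 (SE 0.84). Without vector number 2 these became 0.60 and 1.37, and without vector number 1 they became -1.61 and -1.19. Without Men1 number 1 they were 0.50 and 0.27, and without Men1 number 2 they were -1.51 and -0.09.

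Igfbp3, the main IGF carrier of adult serum, was above control level on 1 array only. Its brighter probe set read 10.6 and 10.7 with Men1, 49.6 and 12.0 with vector, so vector number 1 alone stood out. The other probe set, at control level on every array, also had its highest signal there (13.6, against 1.8 to 3.4 elsewhere). The group difference of the brighter one, -0.69 (SE 0.43), was -0.07 within number 2 and -1.30 within number 1. It was also -0.07 without vector number 1.

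Igfbp6, a binding protein with a strong preference for IGF2, read 23.3 and 25.9 with Men1, both at control level, and 12.8 and 23.6 with vector, of which only the second was above its control of 20.0. Vector number 1 was the lowest. With so little signal the log2 difference of 0.26 (SE 0.23) says little about the gene.

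**Figure D2:**
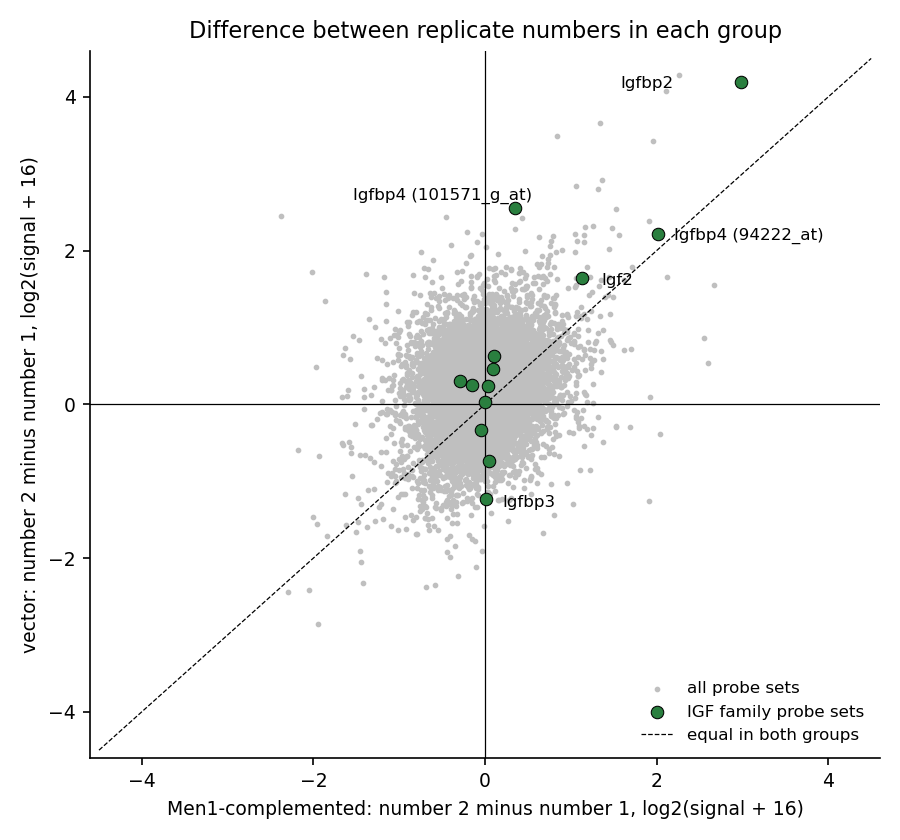
Difference between replicate numbers, number 2 minus number 1 on the log2(signal + 16) scale, in the Men1-complemented group (x axis) against the vector group (y axis). Grey points are all 12422 probe sets, green points the 13 of the IGF family, and the dashed line marks equal differences. Igfbp2 lies at 2.99 and 4.20 at the edge of the cloud, and Igf2 and both measurable Igfbp4 probe sets lie in the same upper right part of the plot.

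Counted over the whole family, 7 of 13 probe sets did not overlap between the numbers with number 2 higher, and 0 of 13 with number 2 lower. Over all probe sets the shares were 28.7% and 16%, and over the 4755 with a mean signal of at least 100 they were 24.5% and 23.6%. The 7 were the brighter probe set of Igf1, both of Igf2, that of Igfbp2, the 2 brighter ones of Igfbp4 and that of Igfbp6. Of those 7, 1 Igf2 probe set was at control level on every array and Igfbp6 was above it on 1. Differences of over 1 log2 unit in both groups were found for 3 members with number 2 higher (Igfbp2, Igf2 and the second brightest Igfbp4 probe set) and 0 with number 2 lower, whereas 0.394% and 0.233% of all probe sets reached that size in each direction. These counts describe values that were known when the family was chosen. The median number difference was 0.14 over the members and 0.06 over all probe sets.

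Between the groups, 0 of the 13 members passed limma's adjusted threshold of 0.05, as did 0% of all probe sets, and 0 of 13 had an unadjusted p under 0.05, which 1.88% of all probe sets had. Groups did not overlap for 2 members higher with Men1 (10.4% of all probe sets) and for 1 member lower with Men1 (11.7%). The 2 higher ones were the dim Igf1 and Igfbp4 probe sets, at control level on all arrays, and the lower one was Igfbp3. In direction alone, 6 member probe sets were higher and 7 lower with Men1, with a median difference of -0.04 against -0.01 over all probe sets. Some genes are counted more than once here, and 4 of the 13 probe sets were at control level on all arrays. By the brightest probe set of each gene, 4 of 8 genes were lower with Men1.

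**Figure D3:**
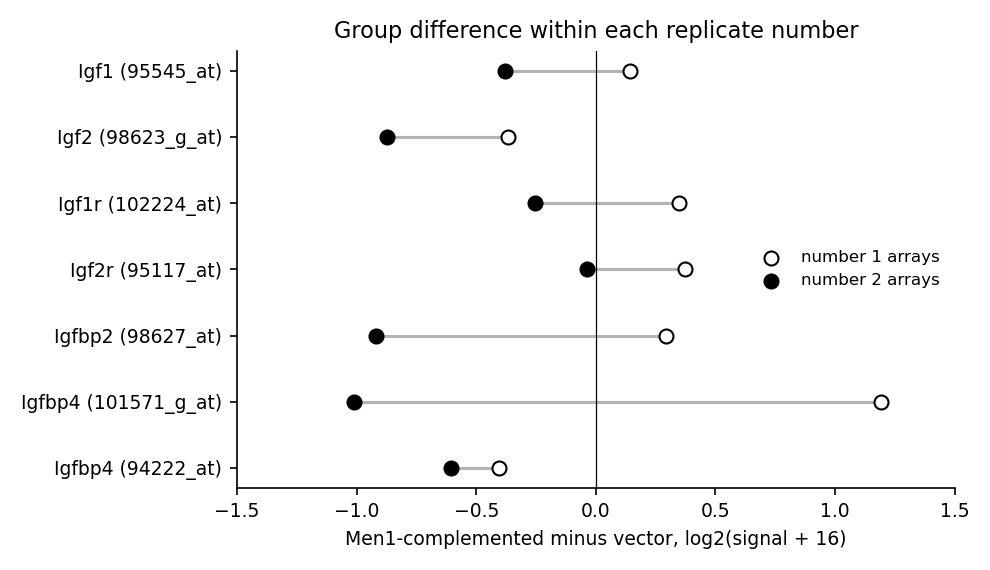
Men1-complemented minus vector on the log2(signal + 16) scale for the 7 probe sets above control level on at least 2 arrays, computed within the number 1 arrays (open) and within the number 2 arrays (filled). Each point is the difference of 1 array from 1 array, with no replicate. The number 2 points lie left of the number 1 points in each row, an order that 60.1% of all probe sets had. Igfbp2 runs from 0.29 to -0.92.

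Within numbers, vector exceeded Men1 for 9 of the 13 members on the number 2 arrays and for 4 of 13 on the number 1 arrays. The same held for 59.6% and 42.9% of all probe sets, so the array as a whole leaned the same way. The largest of these differences on the number 2 arrays were those of Igfbp4 (-1.01 in its brightest probe set), Igfbp2 (-0.92) and Igf2 (-0.87). A pair of single arrays gives no error for them.

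A further probe set is annotated to Tmem119 and to the binding protein gene Igfbp5 together, so it is no member and neither gene is named from it. It read 296.9 and 47.8 with Men1, 242.6 and 31.4 with vector, opposite to Igfbp2 between the numbers. Its mean number difference of -2.37 ranked 7 by size among all probe sets.

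The genes nearest in pattern to the 3 most variable member probe sets were found by root mean square (RMS) distance of centred log2 values over the 4 arrays, among single-gene probe sets with a mean signal of at least 100. Nearest to Igfbp2 were Gas1, a membrane protein of hedgehog signalling that is linked to growth arrest (RMS distance 0.45), and the homeobox gene Shox2 (0.47), followed by the paired box gene Pax2 (0.68). Gas1 read 52.8 and 281.9 with Men1, 52.5 and 1139.4 with vector. Nearest to the second brightest Igfbp4 probe set were Dkk3, a secreted Dickkopf-family protein (0.19), the homeobox gene En1 (0.27) and Perp (0.36). Nearest to the brightest were the endocytic adaptor Dab2 (0.08), H2-T18 (0.30) and Sorbs3 (0.30). With 4 arrays likeness of this kind is a description of the same 4 values.

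**Figure D4:**
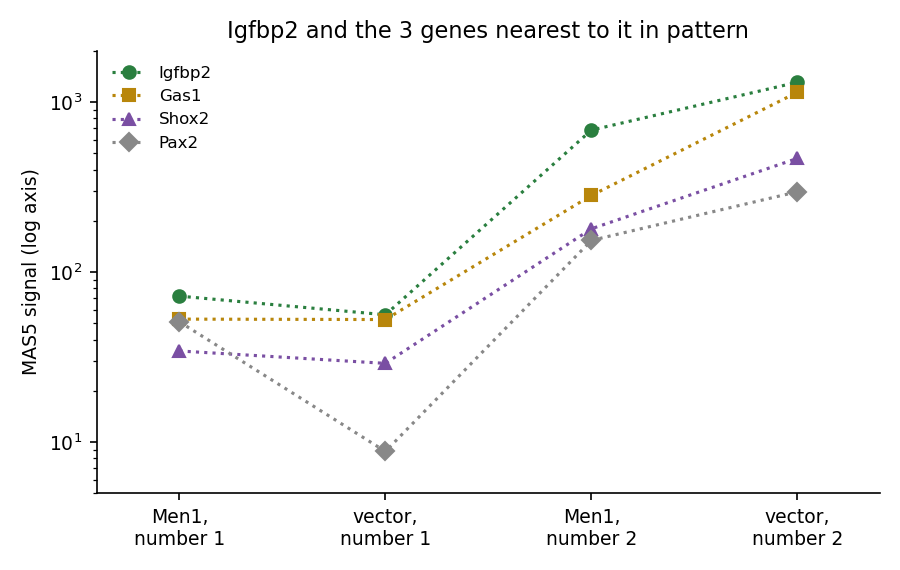
Signals of Igfbp2 and of its 3 nearest genes in pattern, Gas1, Shox2 and Pax2, on the 4 arrays (log axis, linear MAS5 units). Points are single arrays, and dotted lines only join the points of a gene. All 4 genes are higher on both number 2 arrays, and Gas1 reaches 281.9 with Men1 and 1139.4 with vector there.

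Other genes of the pathway were taken from 9 lists of 137 genes, of which 105 were measured outside the members, each by its brightest probe set. By limma 0 of 105 passed the adjusted threshold. Unadjusted p-values under 0.05 belonged to 4 of them (3.81%, beside 1.88% of all probe sets), 2 of which were higher with Men1 and 2 lower. The list genes enter by their brightest probe set, whereas all probe sets include dim ones. These shares are therefore not like for like, and no excess in the pathway is read from them. In all 59 were higher and 46 lower, with a median difference of 0.04.

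Among the ligand and binding protein relatives, 4 of 9 were higher and 5 lower with Men1 (median -0.01), and 5 were at control level on all arrays. Insr, the insulin receptor, was above control level on 1 array only, and Igfbp7 differed by -0.16 (SE 0.26). The smallest p of the list was that of Insrr, an insulin receptor relative, at control level throughout (0.29, SE 0.24). Of 7 proteases that cut binding proteins or belong to the plasmin system, 2 were higher and 5 lower (median -0.13). Plat, tissue plasminogen activator, read 377.0 and 425.7 with Men1, 600.4 and 548.5 with vector, without overlap. Its log2 difference of -0.50 (SE 0.18) had a limma p of 0.0404 unadjusted and 1 adjusted.

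Downstream of the receptor, 8 of 13 adaptors were higher and 5 lower with Men1 (median 0.09). The insulin receptor substrates Irs1 and Irs2 differed by 0.19 (SE 0.19) and 0.09 (SE 0.21), and the phosphatase Ptpn1 had the smallest p (0.24, SE 0.20). PI3K, AKT and mTOR genes were 12 higher and 5 lower (median 0.11). Pdpk1, the kinase that activates AKT, differed by 0.33 (SE 0.20) and Akt1 by -0.04 (SE 0.23). RAS and MAPK genes were 6 higher and 2 lower (median 0.07), with the smallest p at the ERK phosphatase Dusp6 (0.24, SE 0.18). That 0 genes of these 3 lists passed the threshold does not show that they were equal between the groups.

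Other imprinted genes, a class to which Igf2 belongs, were 8 higher and 13 lower with Men1 of 21 measured (median -0.03). Mest, a paternally expressed gene of the embryo, read 86.9 and 70.5 with Men1, 143.7 and 239.3 with vector. Its difference of -1.10 (SE 0.29) had a limma p of 0.0127 unadjusted and 1 adjusted. Ascl2, a transcription factor of trophoblast, read 55.8 and 30.1 against 9.9 and 14.1, at control level on both vector arrays, which makes it at least 1.70-fold higher with Men1 against the control on signals with the 16 added. Its fitted difference of 1.04 (SE 0.27) had a limma p of 0.0131 unadjusted and 1 adjusted. Between the numbers, 11 of the 21 did not overlap with number 2 higher and 3 with number 2 lower, beside 28.7% and 16% of all probe sets. Among probe sets with a mean signal of at least 100 the shares were 24.5% and 23.6%. Dlk1, a paternally expressed Notch ligand relative, read 79.9 and 137.2 with Men1, 92.4 and 197.7 with vector. Cdkn1c, a maternally expressed cell cycle inhibitor, read 623.2 and 863.4 against 647.4 and 1246.2, in the same direction as Igf2. The 3 lower on number 2 were Sgce, Gatm and Ube3a. Sgce read 169.6 and 110.2 with Men1, 173.3 and 86.4 with vector, opposite to Igf2.

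Regulators of Igf2 and of IGF messenger RNA were 6 higher and 1 lower of 7 measured (median 0.26). The smallest p was that of Sp1, a factor that binds GC boxes (0.49, SE 0.19), and Igf2bp1, which binds Igf2 messenger RNA, differed by 0.44 (SE 0.22). Hmga2, an architectural factor of embryonic growth, read 2450.4 and 1781.0 with Men1, 2307.4 and 944.0 with vector, lower on number 2 where Igf2 was higher. In the growth hormone axis 6 of 10 were higher and 4 lower (median 0.15). Socs2, a feedback inhibitor of growth hormone signalling, read 198.1 and 122.9 with Men1, 51.5 and 101.4 with vector. Its difference of 0.95 (SE 0.37) had a limma p of 0.0489 unadjusted and 1 adjusted, and was 0.55 without vector number 1, while the receptor Ghr differed by -0.03 (SE 0.18). Of 14 mannose 6-phosphate sorting partners of Igf2r, 8 were higher and 6 lower (median 0.02), with the smallest p at the adaptor Gga1 (0.36, SE 0.18).

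**Figure D5:**
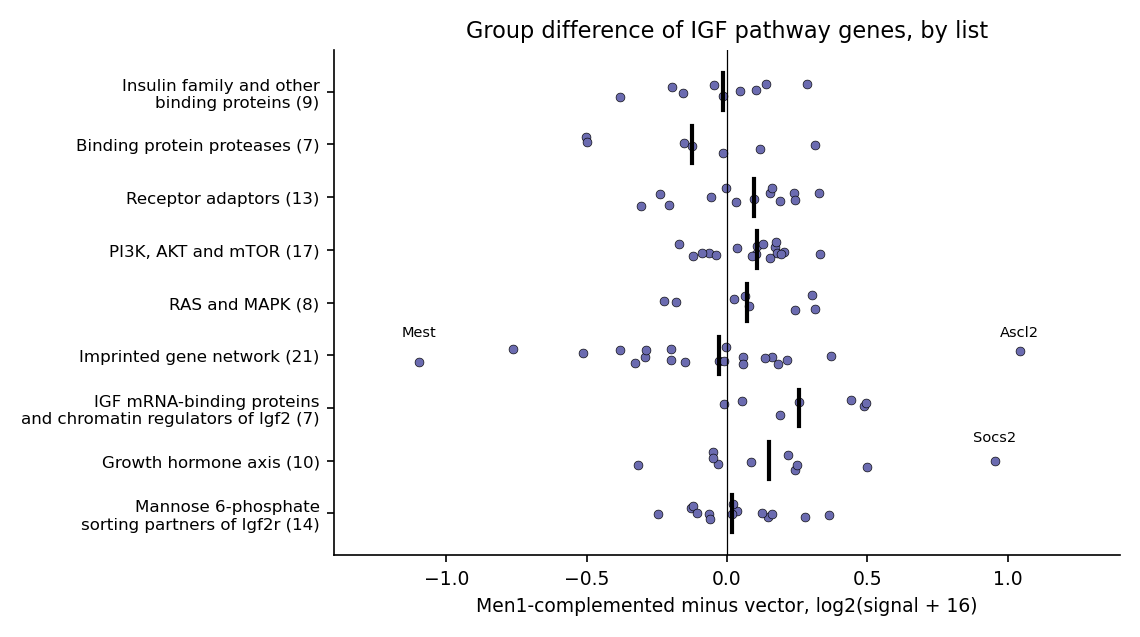
Men1-complemented minus vector on the log2(signal + 16) scale for each measured gene of the 9 pathway lists (points), with the number measured in brackets and the list's median as a bar. Vertical scatter within a row has no meaning. Named points are Mest (-1.10), Ascl2 (1.04) and Socs2 (0.95), none of which passed the adjusted threshold.

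Signals of cell type markers differed between the replicate numbers as well. Smooth muscle markers summed to 9482 and 11662 on the number 1 arrays and to 5981 and 5872 on the number 2 arrays (Men1 first), and 3 of 5 did not overlap, all lower on number 2. Cnn1, calponin, read 882.1 and 217.0 with Men1, 1547.7 and 199.9 with vector. Of 12 fibroblast markers 6 were higher on number 2 without overlap and 1 lower, where 28.7% and 16% of all probe sets were. Among probe sets with a mean signal of at least 100, 24.5% were higher and 23.6% lower. Col1a1 read 6057.4 to 7618.7, whereas the Thy1 probe set was at control level on all arrays. Fetal liver markers, of a tissue rich in Igf2 and Igfbp2, summed to 57.6 to 131.8, highest on vector number 2. Of these, 2 of 6 were higher on number 2 and 1 lower, and 2 were at control level on all arrays. Alb, the lower one, read 8.4 to 23.8. Afp read 23.2 and 10.8 with Men1, 25.6 and 40.5 with vector, and Ttr 5.7 and 6.3 against 3.8 and 41.8. Skeletal muscle markers had 1 higher and 4 lower of 10 on number 2, and neural markers 1 and 4 of 6. Blood cell (2 and 1 of 7), endothelial (2 and 0 of 6), epithelial (2 and 0 of 6), adipocyte (0 and 1 of 4) and bone and cartilage markers (1 and 1 of 3) completed the lists, and with so few markers in each these counts are not set apart from the shares over all probe sets. Between the groups, limma called 0 markers at the adjusted threshold, and 2 had an unadjusted p under 0.05, which 1.88% of all probe sets had. Both were of skeletal muscle, a list with 7 of 10 lower and 3 higher with Men1 (median -0.09, beside -0.01 over all probe sets). In that list Tnnt2 was higher with Men1 (0.42, SE 0.41), and Myod1 differed by -0.06 (SE 0.23). Myog, a transcription factor of muscle differentiation, read 23.7 and 28.1 with Men1, 68.1 and 53.3 with vector (-0.87, SE 0.20, limma p 0.00734 unadjusted and 1 adjusted). Tnni1, slow troponin I, read 61.4 and 74.5 against 111.9 and 105.4 (-0.57, SE 0.18, limma p 0.0274 unadjusted and 1 adjusted). Among the genes named for an unadjusted p under 0.05, Myog, Tnni1, Plat and Mest were lower with Men1 without overlap. Ascl2 and Socs2 were higher without overlap. Over all probe sets 11.7% were lower and 10.4% higher without overlap. Picking genes by a small p from 2 arrays a group favours groups that do not overlap. The lack of overlap in these genes therefore adds nothing to their p-values and is not comparable with those shares. The part of any of these cell types in the differences of the IGF family or its pathway was not tested.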

How the data were processed

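Expression was measured on 4 Affymetrix arrays, 2 for each group, grouped by the titles. The deposited values are MAS5 intensity per probe set on a linear scale, which the authors computed in Affymetrix Expression Console, per the submitters' processing notes. Versions, scaling target and detection calls are not given in the sources used here. Trimmed means of the arrays (2% at each end) were 150.07 to 150.08, so whole arrays had been scaled, and no further normalization was applied. The number of arrays limits the precision.

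Of 12488 probe sets, 66 array controls were left out. Platform annotation gave 1 symbol for 10833 of the other 12422, several for 396 and none for 1193. Log2(signal + 16) was fitted with lmFit and eBayes of limma 3.58.1 (R 4.3.3) across all probe sets and p-values, two-sided, were adjusted by the method of Benjamini and Hochberg, with 0.05 as threshold. The procedure was tested on simulated data with independent noise and no difference between replicate numbers. That run does not show how the fit performs on these arrays. Since no label names separate cultures, p-values reflect only how far these arrays differ, which may be technical. Members and lists were chosen with earlier results of these data known. All member probe sets are named, as are the gene of smallest p in each pathway list and each with an unadjusted p under 0.05; further list genes were named for their role after their values were seen. The alternatives were a replicate block, pseudocounts of 1 and 64, quantile normalization, a filter on low signals, control probe sets included, an intensity trend, the brightest probe set of each gene, and each array left out.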

Additional observations from a re-analysis of the deposited data

How the results depend on the processing

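By limma 0 probe sets, and 0 of the 105 pathway genes, passed the adjusted threshold under each alternative run, while 63 to 1031 probe sets, 233 in the fit as reported, had an unadjusted p below 0.05. The 1031 arose without vector number 1. The number differences of the 2 groups had a correlation of 0.26 across all probe sets, those at control level included. Without overlap, 28.7% of all probe sets were higher and 16% lower on number 2, whereas 10.4% were higher and 11.7% lower with Men1. The titles give no more than a number. With it as a replicate block, 0 probe sets passed and 297 had an unadjusted p under 0.05.

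The count of 7 member probe sets lower with Men1 was 4 after the filter on low signals, which left fewer probe sets, and 4 of 8 with the brightest probe set of each gene. It was 2 to 8 without single arrays, the 2 without vector number 2. Of 13 group differences, 8 changed sign when some array was left out and 1 under the other alternatives. Of 13 number differences, 5 changed sign or became 0 when some array was left out, and 1 changed sign under the other alternatives. The 5 were those of Igf1r, Igf2r, both Igfbp3 probe sets and the dim Igf1 probe set. The number difference of the brightest Igfbp4 probe set kept its direction but ran from 0.35 to 2.55 without single arrays. Between the numbers, the 7 members higher on number 2 without overlap were 6 with quantile normalization. Without single arrays they were 7 to 10, but leaving out an array cannot lower this count, so that range is no check of it. The number difference of Igfbp2 was 2.98 to 3.87 under the alternatives that keep all arrays, and that of the second brightest Igfbp4 probe set, whose number 1 signal with Men1 was at control level, 1.17 to 3.03. The named pathway genes of smallest p kept their direction in the alternatives run, but some sizes depended on 1 array. Without Men1 number 2, Ptpn1 was 0.09 and Insrr 0.06, without Men1 number 1 Dusp6 was 0.15 and Pdpk1 0.21, and without vector number 1 Pdpk1 was 0.20, Insrr 0.16 and Socs2 0.55.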

Other observations

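Several genes outside the IGF family also differed widely between replicate numbers. After Igfbp2, the largest single-gene differences with number 2 higher were those of Gas1 (3.10 on the log2 scale, mean of both groups), Shox2 (2.69) and Pax2 (2.50, with vector number 1 at control level). With number 2 lower they were those of Cnn1 (-2.40) and Rgs16, a regulator of G protein signalling (-2.24). Rgs16 read 1406.2 and 326.8 with Men1, 1356.8 and 240.1 with vector. En1, a homeobox gene of limb and midbrain, read 90.3 and 384.9 with Men1, 73.6 and 451.0 with vector, with almost no difference between the groups (0.01, SE 0.99). These genes were picked by their values and carry no test.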
